A study of Mus musculus with 35 samples.

Results

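Fast-cycling cells of mouse back skin epidermis were compared between the spinous layer and the basal layer, with 3 RNA libraries of each layer. These 6 libraries are all of the series' 35 libraries that carry the back skin nLRC labels, and they were chosen by those labels alone. All animals were C57BL/6J mice of 2 months with the genotype K5-tTA/pTRE H2B-GFP, fed doxycycline for 2 weeks. In these animals a tetracycline transactivator under the keratin 5 promoter switches on a histone-GFP fusion, doxycycline switches it off, and each division then dilutes the label. Cells that lost the label are called nLRC (non-label-retaining, fast-cycling), and cells that kept it are called LRC (label-retaining). Because the transgene runs from the keratin 5 promoter, a cell that never made the label cannot be told apart from one that diluted it. Skin was digested overnight in trypsin, stained, and sorted by flow cytometry, with antibodies that the labels do not name. The other back skin groups, used below for reference, were basal LRC, spinous LRC, granular and hair follicle bulge cells of the same genotype, age and treatment, with 3 libraries each. The labels do not tie replicates to different animals, and the p-values therefore cover only the spread among these libraries, which may be technical.

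The basal layer of the epidermis holds the dividing keratinocytes, which are anchored to the basement membrane by integrins and make keratins 5 and 14. Cells that leave it enter the spinous layer, where keratins 1 and 10 and desmosomal cadherins take over. The epidermis is continuous with the hair follicle, whose upper part opens through the infundibulum and carries the sebaceous gland. Sebocytes, the gland's cells, fill with triglycerides, wax esters and sterols under control of the nuclear receptor gene Pparg.

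The libraries held 17759195 to 20560481 gene reads in the basal nLRC group and 12056704 to 16134301 in the spinous nLRC group. Values are given as CPM, read counts scaled to a common library size by TMM, a method that evens out differences in library composition. A gene passed the test where the Benjamini-Hochberg adjusted p of edgeR's quasi-likelihood test over 16574 genes was under 0.05, and log2 fold changes are spinous minus basal, with their standard error (SE). The share of the median gene's reads outside exons, estimated from the deposited counts and RPKM, was 21.4% to 28% in basal nLRC and 17.4% to 26.4% in spinous nLRC libraries. Structural RNA features took 11.9% to 13.2% of basal nLRC reads and 11.9% to 18.3% of spinous nLRC reads. Outside the comparison, bulge library 2 stood apart with 9785944 reads, 45.3% of them on structural RNA. It entered the gene filter, the scaling and the shared estimate of the spread. Without it 1457 genes passed the test, against 691 with it.

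The defining spinous keratins did not separate the nLRC libraries. Krt1, the first keratin of the spinous layer (GRCm38 chromosome 15, 101845426 to 101850794), was at 528, 563 and 367 CPM in basal nLRC and at 1072, 491 and 467 CPM in spinous nLRC libraries. Its partner Krt10 was at 1388, 1616 and 1439 CPM in basal and 2579, 1395 and 1559 CPM in spinous nLRC libraries. For both genes only spinous library 1 lay above all basal libraries, and the ranges overlapped. The log2 fold change of Krt1 was 0.48 (SE 0.58, edgeR adjusted p = 0.832) and that of Krt10 was 0.32 (SE 0.54, edgeR adjusted p = 0.9). In the LRC libraries the same comparison of layers gave 2.73 for Krt1 (SE 0.61, edgeR adjusted p = 0.0129) and 2.27 for Krt10 (SE 0.57, edgeR adjusted p = 0.0233). The group is therefore named below by its label, spinous nLRC, which these keratins did not show. The basal keratins were lower without passing the test: Krt5 was at 17435, 17903 and 15797 CPM in basal and 6738, 5456 and 8525 CPM in spinous nLRC libraries. The Krt5 difference was -1.30 (SE 0.39, edgeR adjusted p = 0.0769), and that of Krt14 was -1.11 (SE 0.32, edgeR adjusted p = 0.0638). With the replicate number as a block, which pairs same-numbered libraries, the edgeR adjusted p was 0.0444 for Krt5 and 0.0231 for Krt14.

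**Figure D1:**
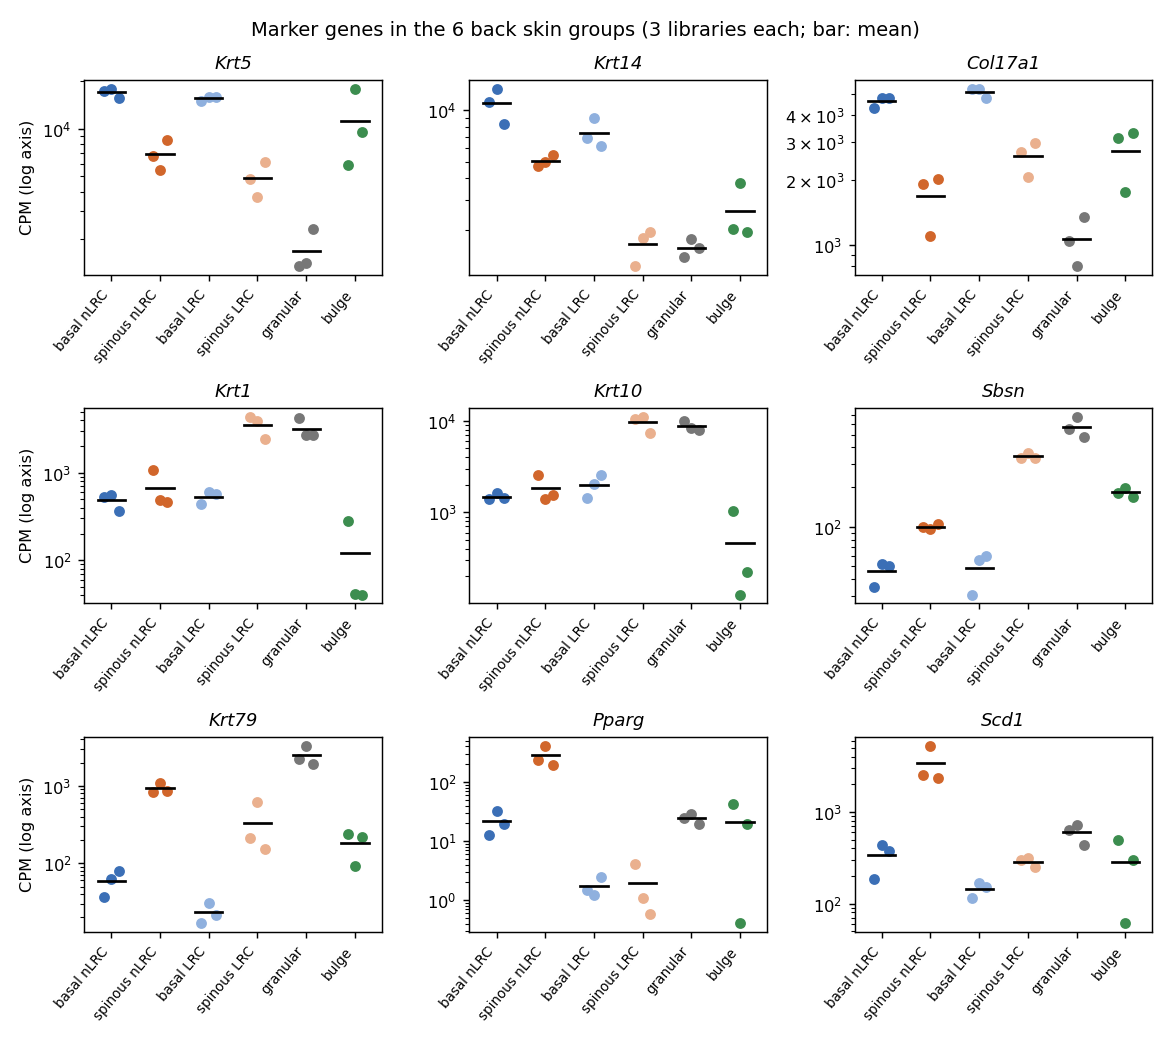
CPM on a log axis of 9 marker genes in the 6 back skin groups, 1 point per library and a bar at the mean. Krt1 and Krt10 are high in spinous LRC and granular libraries and not in spinous nLRC libraries, whereas Pparg and Scd1 are highest in the spinous nLRC libraries.

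Of the 16574 genes, 691 passed the test (4.17%): 455 rose in spinous nLRC libraries (2.75%) and 236 fell (1.42%). The rises were larger than the falls: 212 rises and 24 falls were at least 4-fold, and the median log2 fold change was 1.93 among rises and -1.25 among falls. Over all genes tested the median was -0.00. The 3 spinous libraries lay wholly above the 3 basal ones for 2338 genes (14.1%) and wholly below for 2218 (13.4%). With the replicate block 1189 genes passed (7.17%), 666 higher (4.02%) and 523 lower (3.16%), and these held all 691. With only the 6 libraries in the fit 1462 of 14678 genes passed (9.96%, with 5.63% higher and 4.33% lower), and with the block on those 6 it was 2674 (18.2%, with 9.17% higher and 9.05% lower). Without the bulge libraries, a setting chosen after seeing the data, 1851 of 15963 passed (11.6%, with 6.37% higher and 5.22% lower). DESeq2 called 7.75% of genes (4.71% higher and 3.04% lower) and limma on TPM 1.36% of 15114 (1.13% higher and 0.225% lower). Leaving out a library lowered the count to 231 without basal nLRC library 1, 273 without basal nLRC library 2, 385 without basal nLRC library 3 and 245 without spinous nLRC library 2.

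**Figure D2:**
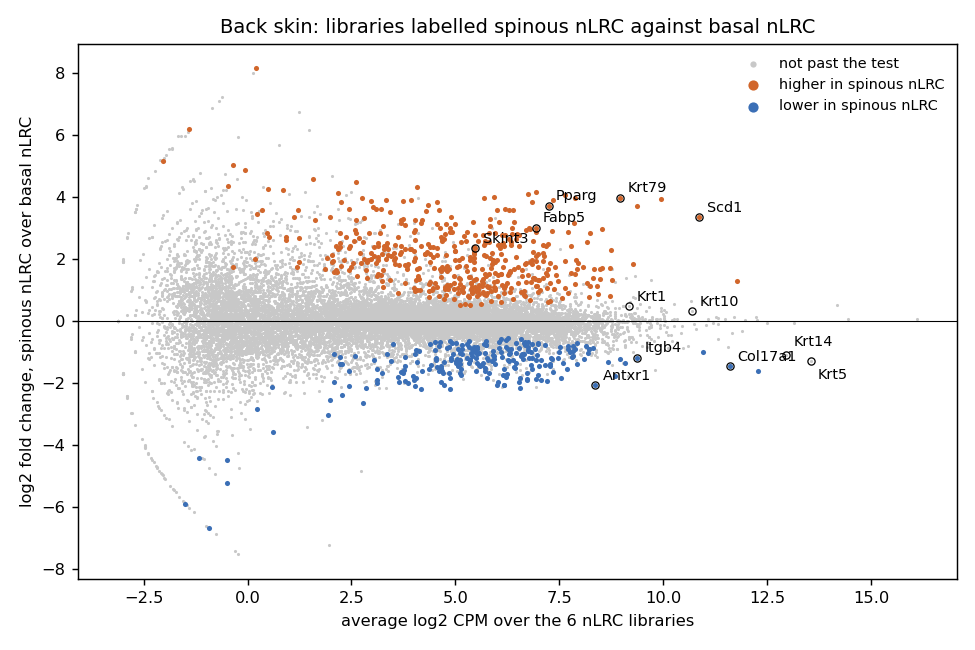
Log2 fold change (spinous nLRC over basal nLRC) against average log2 CPM over the 6 libraries, 1 point for each of 16574 genes. Orange points are the 455 rises and blue points the 236 falls. Krt79 and Scd1 combine a high level with a large rise, and Krt1 and Krt10 lie near 0.

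Sebocyte genes were higher in the spinous nLRC libraries, and their list had the highest median of the 40 lists examined. Of 20 listed genes 16 rose and none fell, against 2.75% of all genes tested, and the list's median was 3.45. In 19 of them all 3 spinous libraries lay above all basal ones. The summed level of the list ran from 695 to 1231 CPM in basal nLRC and from 5518 to 10954 CPM in spinous nLRC libraries. In sorted bulk samples more cells of a type and more RNA per cell cannot be told apart. Without basal nLRC library 1, 2 or 3, or without spinous nLRC library 2, the count of rises was 8.

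Pparg, the transcription factor that drives lipid storage in sebocytes (chromosome 6, 115360951 to 115490399, plus strand), was at 12.8, 32.4 and 19.6 CPM in basal nLRC libraries. It was at 236, 415 and 195 CPM in spinous nLRC libraries. The groups did not overlap, and the log2 fold change was 3.71 (SE 0.82, edgeR adjusted p = 0.0159). Scd1, the desaturase that makes monounsaturated fatty acids, was at 187, 439 and 379 CPM in basal and 2531, 5315 and 2376 CPM in spinous nLRC libraries, a log2 fold change of 3.35 (SE 0.57, edgeR adjusted p = 0.00282). Library 2 held the highest value of its group for both genes in both layers. Plin2, which coats lipid droplets, was at 31.3, 57.5 and 50.9 CPM in basal and 392, 574 and 283 CPM in spinous nLRC libraries. Its log2 fold change of 3.16 (SE 0.34, edgeR adjusted p = 1.2e-04) had the smallest adjusted p of the list.

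Enzymes that build the special lipids of sebum were among the 12 largest rises without overlap at a mean log2 CPM of at least 3. Over all genes past the test, the largest rise was 8.14 and the largest fall -6.66. Fa2h, which hydroxylates fatty acids, went from 5.37, 19.2 and 14.2 CPM to 207, 332 and 151 CPM, a log2 fold change of 4.15 (SE 0.96, edgeR adjusted p = 0.0211). Soat1, which esterifies cholesterol, went from 5, 16.6 and 14.5 CPM to 179, 283 and 147 CPM. Cers4, a ceramide synthase, went from 14.4, 39.6 and 31.5 CPM to 436, 596 and 307 CPM. In all 3 genes basal library 1 was the lowest and spinous library 2 the highest. Far2, which reduces fatty acids to the alcohols of wax esters, rose by 3.91, and Elovl3, an elongase of very long fatty acids, rose by 3.89 on the log2 scale. Dgat2 (triglyceride synthesis) rose by 2.81, Mgst1 (a membrane glutathione transferase) by 3.83 and Tmem97 (a sterol-regulated membrane protein) by 2.71. The wax synthase gene Awat2 rose by 2.01, whereas Awat1 was at or below 1.05 CPM in all 6 libraries. The 4 members that did not pass were Scd3 at 2.16 (edgeR adjusted p = 0.209), Acsbg1 at 1.67 (0.0661), Plin5 at 2.00 (0.42) and Awat1 at 0.10 (0.991).

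**Figure D3:**
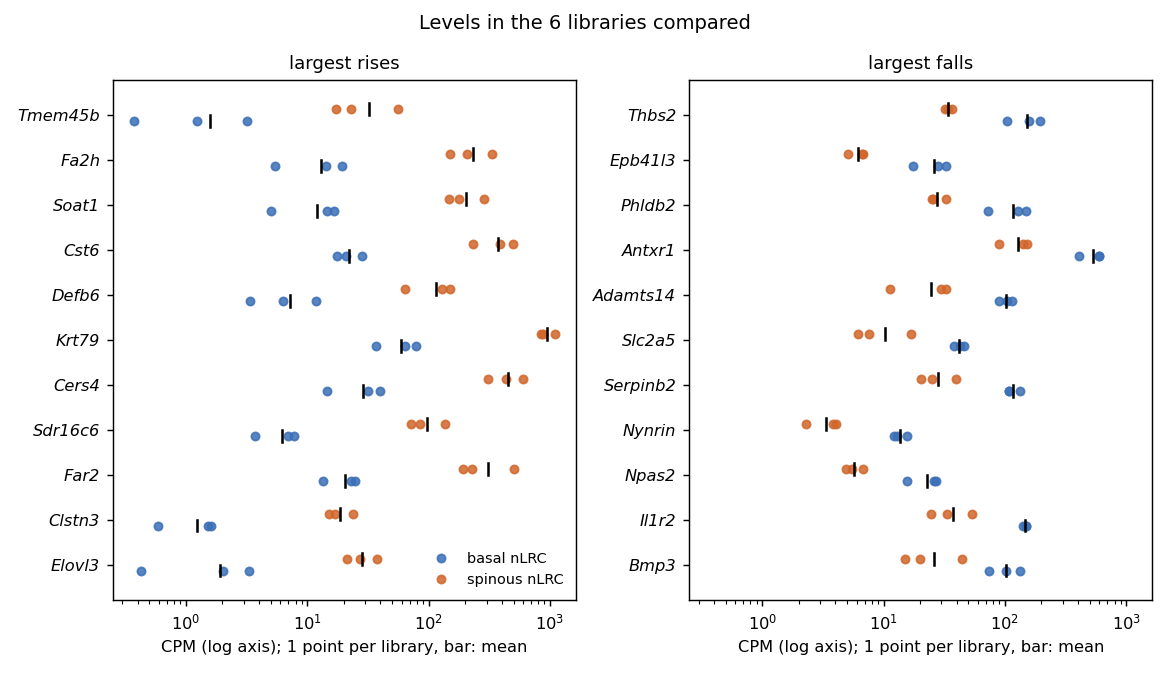
CPM on a log axis of 11 of the 12 largest rises and 11 of the 12 largest falls, 1 point per library, blue for basal nLRC and orange for spinous nLRC, with a bar at each mean. Within every gene shown the 3 spinous points lie on 1 side of the 3 basal points. The choice of these genes required this and a mean log2 CPM of at least 3.

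Among the other rises chosen within those limits, Tmem45b, which encodes a membrane protein, led with a log2 fold change of 4.32 (SE 0.86, edgeR adjusted p = 0.00883). It was at 0.372, 3.16 and 1.23 CPM in basal and 17.3, 55.7 and 23.1 CPM in spinous nLRC libraries. Sdr16c6, a short-chain dehydrogenase gene, went from 3.72, 7.82 and 6.99 CPM to 71, 136 and 84.3 CPM, a log2 fold change of 3.97 (SE 0.39, edgeR adjusted p = 5.0e-05). Clstn3, a calsyntenin gene, rose by 3.90 on the log2 scale from 0.585, 1.6 and 1.51 CPM to 23.9, 15 and 16.8 CPM. In the low-level genes Tmem45b and Clstn3 the basal libraries differed among themselves by more than the spinous ones did in proportion.

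Cholesterol synthesis genes were also higher. Of 23 tested members 15 rose and none fell, with a median log2 fold change of 1.95, and 20 had all spinous libraries above all basal ones. Hmgcs1, an early enzyme of the pathway, rose by 1.14. Mvd, which makes the first isoprene unit, went from 3.83, 4.48 and 2.96 CPM to 37, 66 and 30.5 CPM, a log2 fold change of 3.56 (SE 0.58, edgeR adjusted p = 0.00206). Fdft1, the squalene synthase, rose by 1.85, Lss, the lanosterol synthase, by 2.50 and Nsdhl, a sterol dehydrogenase, by 1.95. Among late enzymes that did not pass, Dhcr7 was at -0.29 (edgeR adjusted p = 0.701), Sc5d at -0.68 (0.291) and Ebp at 0.54 (0.348). Among regulators, Insig1 rose by 2.75, and Srebf2 was at 0.51 (edgeR adjusted p = 0.447).

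The promoters of 3 members of the cholesterol list are shown because 15 of its 23 members rose. They were picked among promoters that hold the letters CCAAT, the core recognized by the factor NF-Y. That these 3 promoters share it follows from this choice. The bases run 5′ to 3′ on the gene's strand, cover the 250 bases before the RefSeq start (GRCm38.p6), and carry CCAAT, or ATTGG where it lies on the opposite strand, in capitals. Hmgcs1 (chr13:119690101-119690350, plus strand) and Mvd (chr8:122443423-122443672, minus strand) rose, and Ebp (chrX:8193513-8193762, minus strand) did not pass the test.
Hmgcs1: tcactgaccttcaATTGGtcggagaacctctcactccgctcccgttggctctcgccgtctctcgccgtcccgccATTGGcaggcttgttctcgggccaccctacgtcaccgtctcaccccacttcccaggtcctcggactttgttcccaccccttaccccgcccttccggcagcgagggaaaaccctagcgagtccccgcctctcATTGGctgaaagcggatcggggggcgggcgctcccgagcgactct
Mvd: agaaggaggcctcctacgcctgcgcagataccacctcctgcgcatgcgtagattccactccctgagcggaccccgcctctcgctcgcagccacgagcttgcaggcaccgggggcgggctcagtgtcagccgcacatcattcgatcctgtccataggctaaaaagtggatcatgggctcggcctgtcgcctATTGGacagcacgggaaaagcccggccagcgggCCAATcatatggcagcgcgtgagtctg
Ebp: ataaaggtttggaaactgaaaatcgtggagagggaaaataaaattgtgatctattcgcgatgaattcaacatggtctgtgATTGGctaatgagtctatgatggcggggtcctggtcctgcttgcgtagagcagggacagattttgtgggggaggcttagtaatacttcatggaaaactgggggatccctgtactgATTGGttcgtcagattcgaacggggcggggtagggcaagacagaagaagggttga
Counting back from the start, the match nearest to it begins at base -45 in Hmgcs1, -27 in Mvd and -55 in Ebp. The RefSeq table matched 16 of the 23 cholesterol genes, with 19 promoters, and 16 of those promoters (84.2%) held CCAAT on either strand. Not every chromosome was covered by the search. The share with CCAAT was 33.8% of the 32851 promoters searched at the same length and 34.8% for tested genes. It was 37.6% for genes that rose and 28.6% for genes that fell. It was 76.9% of the promoters of the mitosis list, of which no member passed the test. The match describes the letters in these windows and is no evidence of binding.

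Genes of fatty acid and triglyceride synthesis followed, with 12 of 23 tested members higher, none lower and a median of 1.71. Fabp5, a fatty acid carrier of the epidermis, went from 20.7, 34.1 and 25.9 CPM to 140, 284 and 227 CPM, a log2 fold change of 3.01 (SE 0.35, edgeR adjusted p = 1.8e-04). Acly, which supplies cytosolic acetyl-CoA, rose by 1.71, Acsl4, which activates polyunsaturated fatty acids, by 2.21 and Gpam, which starts glycerolipid synthesis, by 1.93. Elovl6 went from 75.2, 126 and 80.3 CPM to 1140, 1875 and 640 CPM and Fasn, the fatty acid synthase also on the sebocyte list, rose by 1.84. Among the other acyl-CoA synthetases, Acsl1 was at -0.18 (edgeR adjusted p = 0.924) and Acsl3 at 0.05 (0.98), neither past the test. Fabp4, the adipocyte carrier, had reads in 1 of the 6 libraries, at 0.0619 CPM.

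Peroxisome genes had smaller fold changes: 11 of 23 tested members rose and 1 fell, with a median of 0.91. Pex3, needed to build the peroxisome membrane, was at 17.6, 20.8 and 20.4 CPM in basal and 44.6, 61.4 and 42.6 CPM in spinous nLRC libraries, a log2 fold change of 1.34 (SE 0.18, edgeR adjusted p = 4.7e-04). The β-oxidation genes Hsd17b4 and Scp2 rose by 1.46 and 1.10. Agps, which makes the ether bond of plasmalogen lipids, went the other way, from 59.8, 59.9 and 52.8 CPM to 24.1, 19.5 and 29.3 CPM, a log2 fold change of -1.24 (SE 0.21, edgeR adjusted p = 0.00237). Without basal nLRC library 1 or 2 the rises numbered 6 and 7, and limma on TPM called 1 rise and 0 falls.

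Upper follicle genes rose in 7 of 15 cases and none fell, with a median of 1.62, against 2.75% rises over all genes tested. In the LRC libraries 5 of the 15 rose and 1 fell, with a median of 1.49. The list summed to 715 to 976 CPM in basal nLRC, 2496 to 3061 CPM in spinous nLRC and 6925 to 10519 CPM in granular libraries. Krt79, a keratin of the hair canal (chromosome 15, 101929332 to 101940324), was at 36.5, 63.5 and 79 CPM in basal and 835, 1102 and 873 CPM in spinous nLRC libraries. The log2 fold change was 3.97 (SE 0.53, edgeR adjusted p = 5.1e-04), and same-numbered libraries differed 22.9-, 17.4- and 11.1-fold. In the deposited TPM it was at 77.6, 126 and 151 in basal and 1870, 2082 and 1519 in spinous nLRC libraries. Cst6, a cysteine protease inhibitor, went from 17.6, 20.9 and 28.1 CPM to 233, 390 and 497 CPM, and Defb6, a β-defensin, from 3.35, 6.31 and 11.8 CPM to 63.6, 150 and 128 CPM. The groups stayed far apart in both, with log2 fold changes of 4.07 and 3.99. Gata6, a transcription factor of the sebaceous duct and upper follicle, rose by 2.27 (edgeR adjusted p = 0.0168) and Krt17 by 1.75 (edgeR adjusted p = 0.0497). The list's count of rises was 3 without basal nLRC library 1, basal nLRC library 2 or spinous nLRC library 3, and 4 without basal nLRC library 3 or spinous nLRC library 2 and with limma on TPM.

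The hair follicle bulge list had 3 rises (Foxc1, Sox9 and Tbx1) and 3 falls (Sfrp1, Itgb6 and Col6a1) among 27 tested members. Over all genes tested 2.75% rose and 1.42% fell. Foxc1, a stem cell transcription factor, rose by 2.46 and Sox9, which specifies follicle and sebaceous lineages, by 1.94, whereas Sfrp1, a Wnt inhibitor, fell by 1.24 on the log2 scale. The list had 1 rise and 1 fall without basal nLRC library 1 or 2 or spinous nLRC library 2, 1 rise and 2 falls without basal nLRC library 3, and 2 rises and 1 fall without spinous nLRC library 1 or 3 or with limma on TPM. Lgr5, which defines bulge stem cells, was at 0.319 to 0.336 CPM in basal nLRC, 0.497 to 1.42 CPM in spinous nLRC and 73.8 to 133 CPM in bulge libraries. Cd34, the bulge surface marker, did not exceed 0.933 CPM in the 6 nLRC libraries. The companion layer and outer root sheath list had 2 rises among 9 members, Krt79 and Krt17, and 1 rise with any of the 6 nLRC libraries, any basal LRC library or spinous LRC library 3 left out in turn, or with median-of-ratios scaling. None of 13 tested hair matrix and inner root sheath genes passed the test, with 4 at an unadjusted p under 0.05 and 1 in DESeq2. The low-count filter kept 7 genes of that list with only the 6 libraries.

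Genes of attachment to the basement membrane were lower. Of 21 listed basal keratins, integrins and basement membrane genes 9 fell and none rose, against 1.42% of all genes tested, with a median of -1.11, and 17 had all spinous libraries below all basal ones. Col17a1, the hemidesmosomal collagen (chromosome 19, 47646344 to 47692094), was at 4293, 4775 and 4818 CPM in basal and 1930, 1108 and 2024 CPM in spinous nLRC libraries, a log2 fold change of -1.46 (SE 0.31, edgeR adjusted p = 0.0142). Itgb4, its integrin partner, went from 870, 933 and 949 CPM to 443, 304 and 471 CPM, a log2 fold change of -1.18 (SE 0.24, edgeR adjusted p = 0.00893). The laminin receptor gene Itga3 fell by 1.53, the collagen receptor gene Itga2 by 1.81 and the anchoring fibril gene Col7a1 by 1.93 on the log2 scale. Spinous library 2 was the lowest for Col17a1, Itgb4, Itga3 and Col7a1. Itgb1 was at -0.36 (edgeR adjusted p = 0.612) and Trp63, the lineage factor of stratified epithelia, at -0.45 (0.528), neither past the test. With the replicate block 14 of the 21 fell. Without a basal nLRC library 3 to 5 fell, without spinous nLRC library 1 the count was 5 and without spinous nLRC library 2 it was 1; limma on TPM called 4.

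The 12 largest falls were chosen within the same limits of overlap and level. Among them Antxr1, a collagen-binding receptor, was at 594, 601 and 406 CPM in basal and 141, 89.1 and 151 CPM in spinous nLRC libraries. Its log2 fold change was -2.07 (SE 0.36, edgeR adjusted p = 0.00347). Serpinb2, a protease inhibitor, went from 108, 133 and 109 CPM to 20.3, 25.2 and 39.3 CPM, a log2 fold change of -2.05 (SE 0.33, edgeR adjusted p = 0.00206). The basal and spinous ranges of both genes were well apart. The matrix gene Thbs2 fell by 2.15, the procollagen protease gene Adamts14 by 2.06, the cortical anchor gene Phldb2 by 2.07 and the membrane skeleton gene Epb41l3 by 2.08. Il1r2, the decoy receptor of interleukin-1, fell by 1.98, Bmp3, a bone morphogenetic protein ligand, by 1.97, Slc2a5, a fructose transporter, by 2.05 and Npas2, a clock factor, by 2.00. Nynrin fell by 2.01.

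Spinous layer genes rose in 5 of 20 cases (Skint3, Calml3, Sbsn, Dsc1 and Ly6g6c) and none fell, with a median of 0.68. Skint3, an immunoglobulin-like keratinocyte gene, went from 13.5, 14.5 and 16.3 CPM to 70.5, 79.4 and 74.1 CPM, a log2 fold change of 2.34 (SE 0.22, edgeR adjusted p = 3.5e-05). Sbsn, a secreted protein of suprabasal cells, was at 34.8, 52.4 and 50.7 CPM in basal and 99.4, 96.7 and 105 CPM in spinous nLRC libraries, a log2 fold change of 1.13 (SE 0.23, edgeR adjusted p = 0.0112). Calml3, a calmodulin-like gene, rose by 2.69 and the desmosomal cadherin gene Dsc1 by 1.70. In the separate LRC libraries 19 of the same 20 genes rose, against 3.20% of all genes tested there, with a median of 2.36. The list's count of rises was 2 without basal nLRC library 1, and 3 without any other of the 6 nLRC libraries or without spinous LRC library 1 or any basal LRC library; limma on TPM called 2. Of the Skint family 3 of 11 members rose (Skint3, Skint4 and Skint9), and 1 with each of the 6 nLRC libraries left out in turn or with limma on TPM.

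The lists of later differentiation, barrier lipid and junction genes had 1 to 3 members past the test each, against 4.17% of all genes tested. Of 26 tested granular layer and cornified envelope genes 1 passed: Sprr1a, a cornified envelope precursor, rose from 0.479, 0.518 and 0.839 CPM to 5.47, 10.5 and 10.2 CPM (log2 fold change 3.82, SE 0.56, edgeR adjusted p = 0.00111). With the replicate block 4 of these genes rose, with DESeq2 3 and without the bulge libraries 5. Among 18 barrier lipid genes Slc27a4, a fatty acid transporter, rose by 2.08, whereas DESeq2 called 3 rises and 1 fall. Of 21 differentiation transcription factors Cebpb and Cebpa rose by 1.93 and 1.24, and Hopx fell by 1.07 on the log2 scale. The rises were 1 with each basal nLRC library or spinous nLRC library 2 or 3 left out in turn, the fall was lost without basal nLRC library 2 or spinous nLRC library 1 or 2, and limma on TPM called 1 rise and 0 falls. Of 18 desmosome and junction genes Cldn4 and Cldn8 rose, and Cdh3, the basal P-cadherin, went from 202, 237 and 236 CPM to 98, 76.1 and 115 CPM, a log2 fold change of -1.22 (SE 0.22, edgeR adjusted p = 0.00397). The rises of this list were 0 without basal nLRC library 1 or spinous nLRC library 2 or 3 and 1 without any other nLRC library, and limma on TPM called 0 rises and 0 falls.

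**Figure D4:**
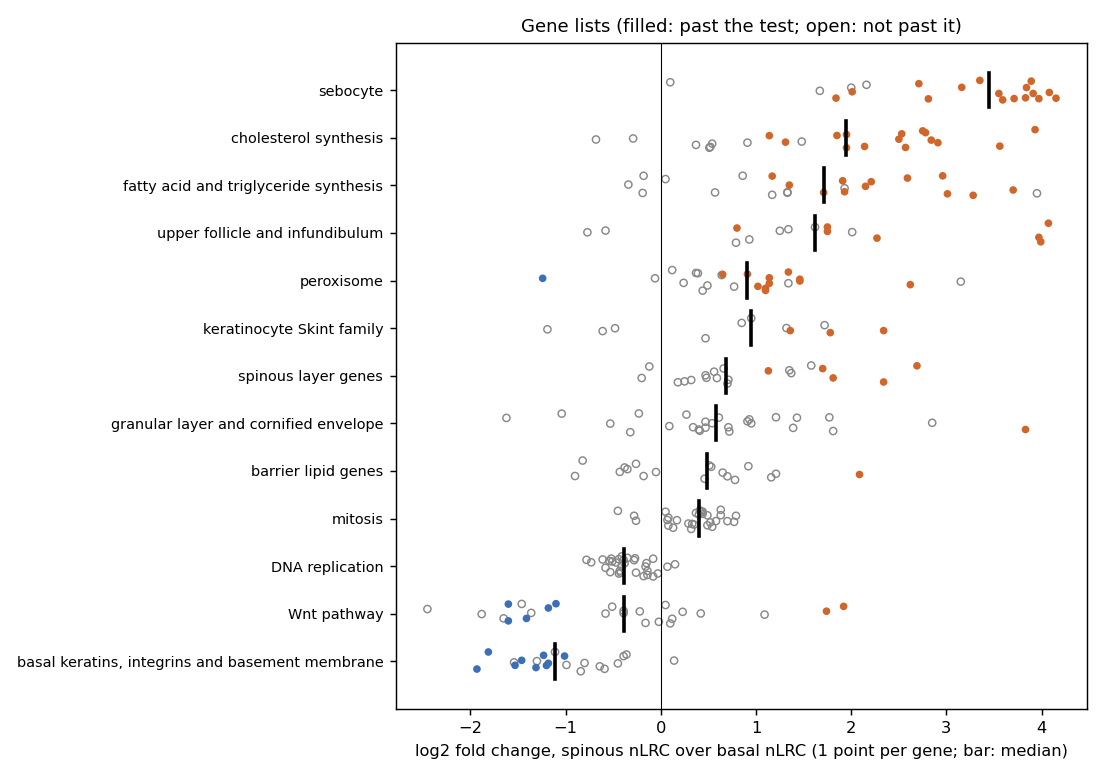
Log2 fold changes (spinous nLRC over basal nLRC) of the tested members of 13 gene lists, 1 point per gene, filled where the gene passed the test, with a bar at each list's median. The sebocyte list lies farthest to the right with a median of 3.45, and the basal list lies to the left with a median of -1.11.

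Whether cell cycle genes passed between the layers of nLRC libraries depended on the fit. In edgeR's test over all back skin libraries none of 30 mitosis genes passed, with a median of 0.40, and none of 31 DNA replication genes did, with a median of -0.39. At an unadjusted p under 0.05, 0 mitosis genes and 1 DNA replication gene passed, against 2511 of all genes, and DESeq2 and the replicate block called 0 in both lists. With only the 6 libraries 2 DNA replication genes fell, and with the block on those 6 libraries 5 mitosis genes rose and 5 DNA replication genes fell, shares to be read against the 9.17% and 9.05% of all genes there. Mki67, a marker of cycling cells, was at 113, 148 and 147 CPM in basal and 148, 306 and 174 CPM in spinous nLRC libraries. In the LRC libraries 5 mitosis genes and 14 DNA replication genes fell in the spinous layer, against 2.85% of all genes there, and 1 mitosis gene, Ttk, rose. The difference between the nLRC and LRC effects passed the test for no member of either list, against 0.392% of all genes. At so small a share the lack of calls decides little. The median in LRC libraries was -1.52 for mitosis and -1.51 for DNA replication genes, and the median difference, nLRC minus LRC, was 1.87 and 1.14. None of 15 tested cell cycle inhibitor and pocket protein genes passed, with 2 at an unadjusted p under 0.05, 0 in DESeq2 and 5 with the block on the 6 libraries.

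The counts of the signalling and response lists that follow are to be read against all genes tested, of which 2.75% rose and 1.42% fell. A single call in a list of 20 or 25 genes lies close to such shares. Of 25 tested Wnt pathway genes 5 fell and 2 rose. The ligand gene Wnt10a went from 153, 181 and 157 CPM to 55.2, 59.3 and 70 CPM, a log2 fold change of -1.41 (SE 0.23, edgeR adjusted p = 0.00198). The ligand genes Wnt5a, Wnt4 and Wnt10b and the receptor gene Fzd10 fell too, whereas the receptor gene Fzd7 rose by 1.74 and the inhibitor gene Nkd2 by 1.92. The falls numbered 1 or 2 without any basal nLRC library, spinous nLRC library 2 or 3, basal LRC library 1 or 2 or spinous LRC library 2, and 3 without basal LRC library 3 or spinous LRC library 1 or 3. With the replicate block 9 fell, and limma on TPM called 0 rises and 2 falls. Axin2, a general Wnt target, was at -0.39 (edgeR adjusted p = 0.363). In the EGF receptor axis the ligand gene Epgn fell by 1.83, and the phosphatase genes Dusp4 and Dusp5 and the receptor inhibitor gene Lrig1 rose, among 17 tested genes. All of these calls were lost without basal nLRC library 1 or 2 or spinous nLRC library 1, the rises without basal nLRC library 3, and the rises were 1 without spinous nLRC library 2 or 3 or spinous LRC library 1. The fall was also lost without spinous nLRC library 2, and limma on TPM called 1 rise and 0 falls. Of 11 insulin-like growth factor genes the binding protein genes Igfbp4 and Igfbp2 rose by 2.54 and 2.87, and 1 rose without basal nLRC library 1 or 3 or spinous nLRC library 2. The BMP and TGF-beta list had 1 rise in 25, the inhibitor gene Smad6 at 2.19, which was lost without basal nLRC library 1 or 3 or spinous nLRC library 1 or 2 and with limma on TPM. With the replicate block this list had 2 rises and 5 falls. The immediate early list had 2 rises in 16, Egr2 at 2.45 and Egr3 at 2.59, and Fos was at -0.75 (edgeR adjusted p = 0.56). The rises were 0 without basal nLRC library 1 or 3 or spinous nLRC library 2 and with limma on TPM, and 1 without basal nLRC library 2. Of 20 interferon genes Usp18 fell by 0.75 on the log2 scale, a call lost with each basal nLRC or basal LRC library, spinous nLRC library 1 or 2 or spinous LRC library 1 left out in turn, without the low-count filter and with limma on TPM. No gene passed in edgeR's test among 16 tested Notch genes (2 at an unadjusted p under 0.05, 0 in DESeq2) and 12 MHC class I genes (0 and 0).

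No member passed edgeR's test among 23 glycolysis, 24 nuclear-encoded oxidative phosphorylation, 13 mitochondrially encoded, 24 ribosomal protein and 10 tested antimicrobial genes. At an unadjusted p under 0.05 these lists had 5, 8, 2, 0 and 3 members, in that order, and DESeq2 called 2, 3, 0, 0 and 1. With the replicate block 2 oxidative phosphorylation genes and 1 antimicrobial gene rose and 2 glycolysis genes fell. The low-count filter kept 7 antimicrobial genes with only the 6 libraries. With only the 6 libraries 4 oxidative phosphorylation genes rose, without the bulge libraries 10 and with the block on the 6 libraries 12, and in 15 of the 24 all spinous libraries lay above all basal ones, against 14.1% of all genes. The mitochondrially encoded list summed to 3582 to 4403 CPM in basal and 4167 to 8526 CPM in spinous nLRC libraries, with a median of 0.61. No member passed among the 11 genes of the population and sort surface list, which held Krt5, Krt14, Krt1, Krt10 and Itga6, with 5 at an unadjusted p under 0.05, 3 falls in DESeq2 and 4 falls with the replicate block.

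Lists of other cell types summed to at most 278 CPM in any of the 6 nLRC libraries. Ptprc, the leukocyte surface gene, was at 0.168 to 0.425 CPM in basal and 0.829 to 1.3 CPM in spinous nLRC libraries, and Cd207, which defines Langerhans cells, did not exceed 0.933 CPM. Of 10 Langerhans genes only Epcam rose, by 1.17. The list, Epcam included, summed to 47.6 to 95 CPM in basal and 82.3 to 278 CPM in spinous nLRC libraries. Of 6 tested T cell genes and 8 tested fibroblast genes only Thy1, on both lists, fell, from 106, 124 and 117 CPM to 30, 35.2 and 40.6 CPM, a call lost without basal nLRC library 2 or spinous nLRC library 1 or 2 and with limma on TPM. The melanocyte list of 8 genes summed to 88 to 111 CPM in basal and 112 to 174 CPM in spinous nLRC libraries with no member past the test. In 5 of the 8 all spinous libraries lay above all basal ones, against 14.1% of all genes. No gene passed among the tested genes of the Merkel cell (2), endothelial (9), muscle and pericyte (5) and erythroid (4) lists. At an unadjusted p under 0.05 the melanocyte list had 3 members, the Merkel cell and endothelial lists 1 each and the last 2 lists 0, and DESeq2 called 0 in all 5. The low-count filter ran over all 18 back skin libraries, bulge included. Over only the 6 compared libraries it kept 0 Merkel cell, 3 endothelial, 4 muscle and pericyte and 2 erythroid genes. It kept 3 T cell genes and 1 fibroblast gene there. Genes with so few reads could hardly pass, so their lack of calls decides little. The part of sebaceous or upper follicle cells in the rises of the lipid lists was not tested.

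The same comparison of layers was made in the separate LRC libraries. Of 16574 genes 1002 passed there (6.05%), 530 higher (3.20%) and 472 lower (2.85%) in spinous LRC. Of the 455 nLRC rises 104 also rose in LRC libraries, 22.9% of the nLRC rises and 19.6% of the LRC rises. Of the 236 nLRC falls 93 also fell, 39.4% of the nLRC falls and 19.7% of the LRC falls. The LRC fold change had the same sign for 355 of the 455 rises (78%) and 201 of the 236 falls (85.2%). The same-sign share over all genes is not given here. The median log2 fold change of these rises was 1.93 in nLRC and 0.59 in LRC libraries, and that of the falls -1.25 and -0.74. Itgb4 was at -1.41 in LRC libraries (edgeR adjusted p = 0.00208), and 12 of the 21 basal genes fell there. Krt79 rose in both, by 3.83 in LRC libraries (edgeR adjusted p = 5.6e-04), from 16.9, 31.1 and 21.3 CPM to 211, 621 and 155 CPM. The sebocyte list had 1 rise in LRC libraries and a median of 0.79. Pparg was at 1.51, 1.21 and 2.5 CPM in basal LRC and 4.07, 1.1 and 0.591 CPM in spinous LRC libraries. It was at 24.6, 28.2 and 19.5 CPM in granular libraries and 42.9, 0.409 and 19.1 CPM in bulge libraries, all far under the 195 to 415 CPM of spinous nLRC libraries.

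The difference of the layer effects, nLRC minus LRC, was tested in the same model and passed for 65 genes (0.392%), 48 higher (0.290%) and 17 lower (0.103%). Among sebocyte genes it passed for Plin2, at 2.72 (SE 0.45, edgeR adjusted p = 0.0157), and Tmem97, at 2.44 (SE 0.48, edgeR adjusted p = 0.0346). For Pparg the difference was 3.54 (SE 1.18, edgeR adjusted p = 0.202) and did not pass. Acsl4 differed by 2.72 (edgeR adjusted p = 0.007) and Igfbp4 by 2.48 (edgeR adjusted p = 0.046). In the other direction Sbsn differed by -1.67 (SE 0.33, edgeR adjusted p = 0.0346) and Dsg1b, a desmosomal cadherin gene, by -1.42 (SE 0.30, edgeR adjusted p = 0.0465). Krt1 at -2.25 (SE 0.82, edgeR adjusted p = 0.246) and Krt10 at -1.96 (SE 0.77, edgeR adjusted p = 0.294) did not pass. The count was 0 with limma on TPM, and leaving out any library but spinous nLRC library 1 or 3 or spinous LRC library 3 lowered it to between 10 and 24.

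**Figure D5:**
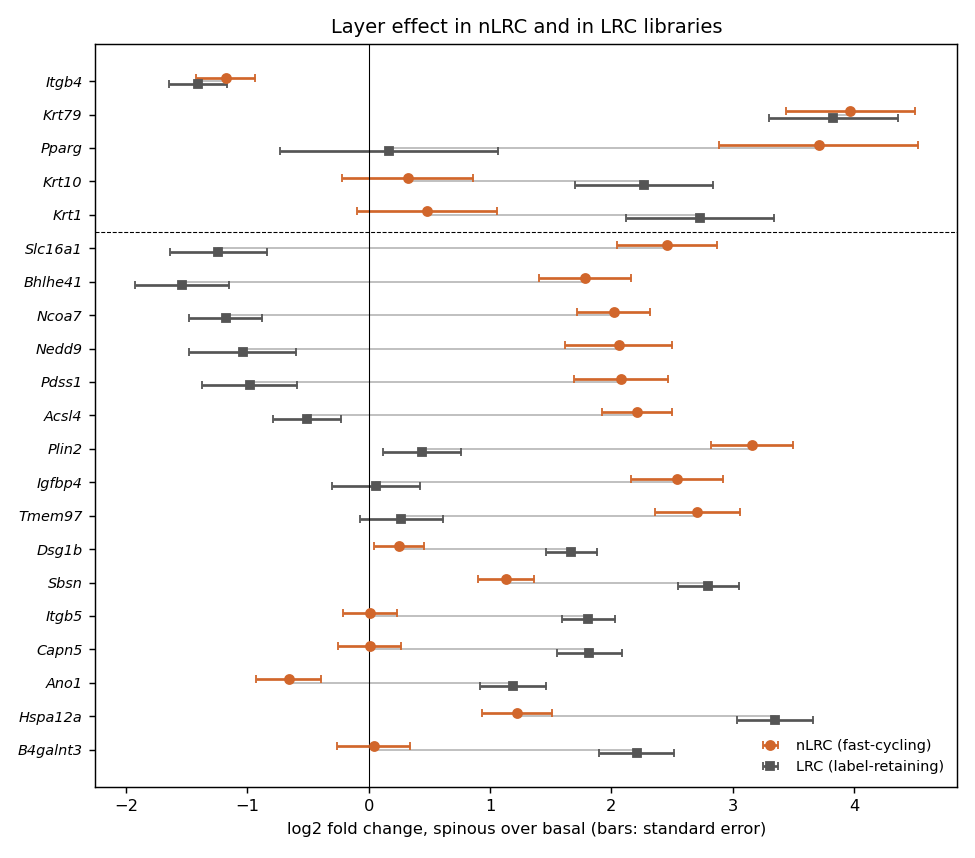
Log2 fold change of spinous over basal in nLRC (orange circles) and LRC libraries (grey squares), with standard errors, for 16 genes whose effects differ past the test and, above the dashed line, 5 reference genes. Plin2 and Igfbp4 lie farther to the right in nLRC libraries, and Sbsn and Dsg1b in LRC libraries.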

How the data were processed

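Total RNA of sorted cells was sequenced with a stranded kit (SMARTer Stranded Total RNA-Seq Pico v2), per the labels' protocols. The authors deposited, for each library, total gene reads as counts, and TPM and RPKM, per the file headers. The build is mm10, per the submitters' processing notes; aligner, counter and annotation: not given in the sources used here. Counts of 18 back skin libraries in 6 groups were fitted with edgeR 4.0.16 (R 4.3.3), TMM scaling and a filter on low counts (minimum count 10, minimum total 15), which kept 16574 of 53715 genes. The deposited TPM served as a check with limma 3.58.1 on log2(TPM + 1), and the deposited RPKM only for the share of reads outside exons. DESeq2 1.42.0 was an alternative. Gene positions are from GENCODE vM21.

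Same-numbered basal and spinous libraries deviated together (Pearson's r 0.328, 0.187 and 0.28 over 16574 genes), and other pairs did not (-0.264 to -0.0102). The deviations were taken from each group's mean, so positive values for same-numbered pairs force negative ones among the others. The other pairs are therefore no separate evidence of pairing. On the same-numbered values alone, the numbers were taken to pair the libraries in the replicate block. The main test was unpaired. Fitted with known changes on simulated data of 16107 genes, the test recovered 73% of genes at a log2 change of 2 and 16% at 1. Genes named are the 12 largest rises and 12 largest falls that passed without overlap and whose mean log2 CPM reached 3 (predicted, mitochondrial and ribosomal genes left out), up to 4 members of each list with the smallest p, the sort surface genes, and the 5 largest differences of effects each way. Other list members were named after their values were seen. The members and lists were chosen with earlier results of these data known. Krt85, Areg, Il36a, Il36b, Il36g and Aldoa are not analysed here. A few of the genes so chosen are left unreported.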

Additional observations from a re-analysis of the deposited data

Results flagged for a closer look

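For 16 genes named here, of 65, the layer effect differed between nLRC and LRC libraries by edgeR's test of the difference, and no cause was tested. Slc16a1, a lactate transporter, differed by 3.70 on the log2 scale (2.46 in nLRC, -1.24 in LRC, edgeR adjusted p = 0.00926), and it went from 15.5, 28.4 and 18.3 CPM to 97.3, 155 and 89.6 CPM in nLRC libraries. The repressor gene Bhlhe41 differed by 3.32, the coactivator gene Ncoa7 by 3.20, the scaffold gene Nedd9 by 3.09 and Pdss1, of coenzyme Q synthesis, by 3.06, each with opposite signs of the nLRC and LRC values. Plin2 and Acsl4 differed by 2.72 each, Igfbp4 by 2.48 and Tmem97 by 2.44. In the other direction the glycosyltransferase gene B4galnt3 differed by -2.17 (0.04 in nLRC, 2.21 in LRC, edgeR adjusted p = 0.0346), with 11.8, 7.16 and 9.45 CPM in basal and 15.7, 5.14 and 8.06 CPM in spinous nLRC libraries. Hspa12a differed by -2.12, the chloride channel gene Ano1 by -1.86, the protease gene Capn5 by -1.81, the integrin gene Itgb5 by -1.80, Sbsn by -1.67 and Dsg1b by -1.42. Groups of 3 libraries were not tested for a library far from the others.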

How the results depend on the processing

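The count of 691 genes was 684 with median-of-ratios scaling and 867 without the low-count filter. It was 1285 with DESeq2, 1189 with the replicate block, 1462 with only the 6 libraries, 2674 with the replicate block on only those 6, 1457 without bulge library 2 and 1851 without all bulge libraries (chosen after seeing the data), and 205 with limma on TPM. Leaving out 1 library gave 231 to 485. The 65 differences of effects became 73 with median-of-ratios scaling, 590 with DESeq2, 172 without the filter, 386 with the replicate block, 1106 with only the 12 nLRC and LRC layer libraries, 866 without bulge library 2, 1291 without all bulge libraries and 0 with limma on TPM, where 1064 genes had an unadjusted p under 0.05; leaving out 1 library gave 10 to 78. Of the 24 largest rises and falls, all passed under each setting that kept every library of the comparison except limma (18), and 14 to 21 passed with 1 library left out. List genes past the test numbered 110, and 264 with the replicate block on 6 libraries, 188 without bulge libraries and 59 with limma; leaving out 1 library gave 57 to 88. For 82 single genes 1041 of 1229 values kept direction and call, 168 lost the call, 20 gained it and 0 reversed. The replicate block kept all 691 calls and DESeq2 99.1% of them. Limma on TPM kept 169 (24.5%), and leaving out 1 nLRC library kept 33% to 66%. The causes were not tested. Depth limits low genes most. The standard errors and p-values cover the spread among these libraries, and not counting error alone.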
